A study of Mus musculus with 24 samples.

Results

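Fibroblasts of the deep brain were examined as 1034 nuclei out of 124958 kept from 12 deep brain libraries of single-nucleus RNA sequencing. The nuclei came from 6 *Pdgfb* ret/ret mice, called mutants here (551 nuclei), and 6 *Pdgfb* ret/wt mice, called controls (483 nuclei). All carried at least 1 ret allele (strain B6.Pdgfbtm3Cbet), which removes the retention motif of the platelet-derived growth factor PDGF-B, so the controls were heterozygous and not wild type. The mice were between 4 months 7 days and 5 months 18 days old, all mutants and 5 controls were female, and control 6 was male. Mice were perfused, and the deep brain, where vessels calcify in mutants, was dissected from the cortex and frozen. Each library held 1 mouse, and the cortex of the same mice gave 12 further libraries.

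A nucleus was taken as a fibroblast when *Bnc2*, *Ranbp3l*, *Slc6a20a*, *Col1a2* and *Dcn* together had at least 5 UMIs (counted RNA molecules) from at least 2 of these genes. It also had to have at most 1 UMI of *Flt1* and *Cldn5* together, at most 1 of *Mog*, *Mag* and *Mobp* together, and none of *Csf1r*, *Rbfox3* or *Aqp4*. The nuclei were thus selected on the measured UMIs of these 13 genes, whose levels are given as description only. At the limit, 29 nuclei had exactly 5 UMIs of the 5 genes, and 29 nuclei that met every other condition had 4.

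Fibroblasts of the brain lie in the coverings of its surface, the meninges, and around larger vessels within it. They lay down collagens, laminins and proteoglycans, and those of the inner coverings (leptomeninges) make retinoic acid and carry transporters that face the cerebrospinal fluid. The arachnoid barrier is a neighbouring cell layer joined by tight junctions. In this mouse line the loss of PDGF-B retention thins the coat of mural cells (pericytes and smooth muscle) on vessels, and the vessels of the deep brain calcify. Fibroblasts carry the PDGF receptors *Pdgfra* and *Pdgfrb*.

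Between 48 and 114 fibroblast nuclei were found per library, with 199499 to 356854 UMIs in all, out of library totals of 64736053 to 96459036 UMIs. The median UMIs per fibroblast nucleus in a library were 2879 ± 243 in mutants and 3097 ± 372 in controls (SD, n = 6 mice each, exact permutation test, two-sided, p = 0.249). The share of mitochondrial UMIs was 0.520 ± 0.138% in mutants and 0.407 ± 0.177% in controls (n = 6 each, exact p = 0.238). Of the 1034 fibroblast nuclei, 164 (15.9%) had a barcode that another deep brain library also held, against 14.7% of all deep brain barcodes counted per library. The source of the shared barcodes was not tested. Only 1 barcode was a fibroblast in 2 libraries.

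The label was checked on fibroblast genes that the rule did not use. Pooled over libraries, *Cped1* (ENSMUSG00000062980, chromosome 6, 21985916 to 22256404, GRCm38) stood at 1718 CPM (UMIs per 1000000 UMIs of the summed nuclei) in fibroblasts and 14.9 CPM in all other kept deep brain nuclei. *Eya2*, a transcriptional coactivator, stood at 797 against 6.18 CPM, and *Slc6a13*, a GABA and taurine transporter of the leptomeninges, at 498 against 2.06 CPM. *Col1a1*, a chain of collagen I, had 242 CPM against 0.774 in endothelial nuclei and 76.9 in mural nuclei, and *Lum*, the proteoglycan lumican, had 98.6 CPM against 0.774 and 28.8. Of the 18 fibroblast genes on the list, 18 were higher in fibroblasts than in all other nuclei, 17 were higher than in endothelial nuclei, 16 of them by more than 2-fold, and 18 were higher than in mural nuclei, 15 of them by more than 2-fold. Fibronectin, *Fn1*, went the other way, at 679 CPM in fibroblasts and 983 in endothelial nuclei, and *Foxc1* had 80.4 against 75.0 there. Against mural nuclei *Lama2* had 1055 and 922 CPM, *Twist1* 10.2 and 9.61, and *Tbx18* 143 and 106. Defining markers of the neighbouring vascular cells differed in how low they were. *Pecam1* had 2.2 CPM in fibroblasts and 808 CPM in endothelial nuclei, *Kcnj8* had 4.68 CPM against 404 in mural nuclei, and *Rgs5* 7.98 against 1172. The endothelial cadherin *Cdh5* was present in fibroblasts, at 140.4 CPM against 422 in endothelial nuclei, and stood between 137 and 187 CPM in each of the 6 largest clusters of fibroblast nuclei. *Vtn* and *Pdgfrb*, which mark mural cells, were also present in fibroblasts, at 594 and 174 CPM against 3421 and 1749 in mural nuclei. The 53 mural nuclei were few, so their levels rest on little RNA. The label did not hold equally for all members. The clusters numbered 1 and 10 below held 281 of the 1034 nuclei (27.2%). In each, 4 of 6 arachnoid barrier markers exceeded their level in the remaining members by more than 2-fold, but not the same 4. *Cdh1* and *Klf5* did so in both, *Abcg2* and *Slc47a1* in cluster 1, and *Cldn11* and *Dpp4* in cluster 10. *Dpp4* had 18.0 CPM in cluster 1 against 75.3 in the remaining members. *Slc47a1* had 34.1 in cluster 10 against 559. The 6 markers summed to 3260 and 3712 CPM against 91.7 to 556 in the other clusters, and *Slc47a1* alone gave 1818 of the 3260. *Slc6a13* had 4.73 CPM in cluster 1 and 0 in cluster 10, *Lum* 5.68 and 0, and *Pdgfra* 43.5 and 11.35, while *Col1a1* had 149 and 0 and *Cped1* 1518 and 1271. Of the 18 fibroblast genes, 2 exceeded the remaining members by more than 2-fold in each of these clusters. In cluster 1 they were *Eya2*, at 1613 CPM against 462, and *Fn1*, at 1354.5 against 401. In cluster 10 they were *Fn1*, at 6583 against 532, and *Col6a3*, at 193 against 42.0. These nuclei meet the rule and are counted as members, without being shown to be fibroblasts.

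*Pdgfb* itself gave 4 UMIs in all mutant fibroblasts and 5 in all control fibroblasts. In endothelial nuclei, its main source at vessels, it stood at 209 ± 65.1 CPM in mutants and 224 ± 47.4 in controls (n = 6 each). Reads were taken from the 5′ end of transcripts, and the ret allele alters the end of the coding sequence, so these levels do not check the genotype.

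The fibroblasts were not uniform. Grouping them on their own expression gave 12 clusters, described here without a test because the same genes formed them. Clusters 1 to 6 had nuclei in all 12 libraries. Cluster 1 held 263 nuclei (25.4%) and was led by *Adamtsl3*, *Slc26a7*, *Slc47a1*, *Ccn3* and *Slc26a2*. *Slc47a1*, an exporter of organic cations, stood at 1818 CPM there (ENSMUSG00000010122, chromosome 11, 61343401 to 61378345), and between 0 and 28 CPM in clusters 2 to 6. *Rspo3*, which amplifies Wnt signalling, had 933 CPM in cluster 1 and at most 42.8 in clusters 2 to 6. Arachnoid barrier and dural markers were both found in cluster 1. With 10 CPM added, 4 of 6 in each list exceeded the other members by more than 2-fold. *Cdh1* (E-cadherin) had 376 CPM against 45.4 in the other members, the mineralization inhibitor *Mgp* 1231 against 162 and *Fxyd5* 563 against 17.9. The tight junction gene *Cldn11* had 205 against 131, *Crabp2* 26.5 against 19.0 and *Dkk2* 6.62 against 1.55, and *Dpp4* was lower, at 18.0 against 75.3. The cluster is therefore called here by its leading genes only.

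The genes of the rule divided between cluster 1 and the others. *Bnc2*, a zinc finger transcription factor, reached 4422 CPM in cluster 1 while *Ranbp3l* had 13.2 and *Slc6a20a*, a proline transporter, 10.4 CPM there. In clusters 2, 3 and 4 the reverse held, with *Slc6a20a* at 4221, 3099 and 4531 CPM and *Bnc2* at 57.0, 167 and 1077 CPM. *Col1a2*, a collagen I chain, was more even, from 454 to 805 CPM over clusters 1 to 6. Most UMIs of the 5 genes in cluster 1 were thus of *Bnc2*, and most in clusters 2 to 4 of *Ranbp3l* and *Slc6a20a*.

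Clusters 2, 3 and 4 (207, 188 and 155 nuclei) shared *Bmp6*, the prostaglandin D synthase *Ptgds* and the retinoic acid synthase *Aldh1a2*. *Aldh1a2* had 426, 489 and 735 CPM in them and 11.4 in cluster 1. Cluster 2 was led by genes that included *Ndnf* and *Apcdd1*, of which *Apcdd1* inhibits Wnt signalling. Cluster 3 was led by *Gm30613*, *Vtn*, *C4b* and *Wnt4*, with *Vtn* (vitronectin) at 2095 CPM and complement *C4b* at 199. Cluster 4 was led by *Nnat*, *Ppp1r1a* and *Atp13a5*. It had the highest *Ptgds* of these clusters, 30830 CPM, and 1159 CPM of the organic anion transporter *Slc22a8*.

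Clusters 5, 6, 8 and 10 were smaller. Cluster 5 (62 nuclei) was led by genes that included *Eln* (elastin), *Nox4*, *Tagln*, *Acta2* and *Mfap5*. *Eln* had 1896 CPM there (ENSMUSG00000029675, chromosome 5, 134702593 to 134747323) and at most 134 CPM in the other 5 of the first 6 clusters. *Eln* was found in 46 of the 62 nuclei and *Ccn2*, a matrix protein induced by TGFβ with 2276 CPM against 114 in cluster 1, in 41. The pericyte genes *Rgs5* and *Kcnj8* had 0 UMIs in cluster 5. The smooth muscle genes *Acta2* and *Myh11* came from few of its nuclei. *Acta2* had 42 UMIs in 3 nuclei, 35 of them in 1 nucleus, and all 28 UMIs of *Myh11* were in 1 nucleus. Cluster 6 (46 nuclei) was led by *Col15a1*, *Srpx2*, *Fbln2* and *Pi16*, and *Lama1*, a laminin chain of basement membranes, had 2973 CPM in it and 4.73 in cluster 1. *Pi16*, known from adventitial fibroblasts, had 471 CPM in cluster 6, where 1 nucleus held 32 of its 55 UMIs, and 300.4 in cluster 5, where 19 nuclei held it. Cluster 8 (23 nuclei) was led by *Itga8*, *Emcn*, *Dach1* and *Moxd1*. Cluster 10 (18 nuclei, from 8 libraries) was led by *Slc7a14*, *Dpp4*, *Dapl1* and *Upk1b*, and had *Dpp4* at 1260 and *Cldn11* at 1271 CPM.

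**Figure D1:**
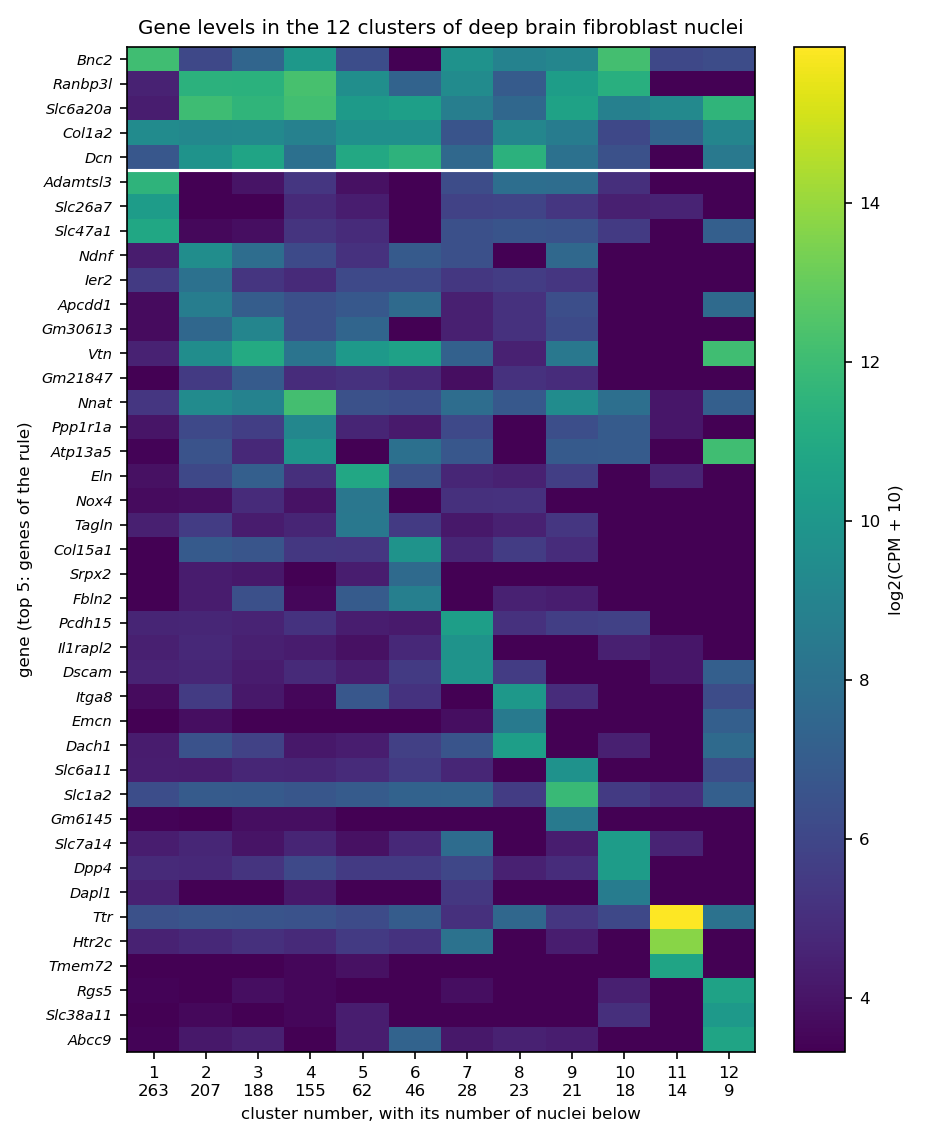
Level of each gene (rows, log2 of CPM + 10, colour scale) in the 12 clusters of deep brain fibroblast nuclei (columns, with the number of nuclei). The 5 genes of the rule are above the white line and 3 leading genes of each cluster below it. *Bnc2* is bright in clusters 1 and 10 and *Slc6a20a* in clusters 2 to 4, and *Ttr* at 64150 CPM marks cluster 11.

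Another 4 clusters met the rule but were led by genes of other cells. Cluster 7 (28 nuclei) was led by *Pcdh15* and *Il1rapl2*, cluster 9 (21) by the astrocyte transporters *Slc6a11* and *Slc1a2*, cluster 11 (14) by the choroid plexus genes *Ttr* and *Htr2c*, and cluster 12 (9) by the pericyte genes *Rgs5* and *Abcc9*. Their median UMIs per nucleus were 7777, 4353, 8880 and 1669, against 2405 to 3551 in clusters 1 to 6. Together they held 72 of the 1034 nuclei, 32 from mutants and 40 from controls. The split was uneven in cluster 12, with 1 nucleus from mutants and 8 from controls, and in cluster 11, with 5 and 9, while clusters 7 and 9 had 14 and 14 and 12 and 9 (no test). Mural nuclei by their own rule also numbered fewer in mutants, 13 against 40. No caller of doublets was run.

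Next, the abundance of fibroblasts was compared between genotypes. Fibroblasts made up 0.859 ± 0.132% of kept deep brain nuclei in mutants and 0.806 ± 0.211% in controls (SD, n = 6 mice each). The lowest, median and highest mouse stood at 0.628, 0.921 and 0.974% in mutants and at 0.511, 0.830 and 1.04% in controls, so the groups overlapped over nearly their whole ranges. The difference of 0.0526 percentage points was within the spread between mice (two-sided exact permutation test, p = 0.619), and it turned to -0.00654 without control 1. When each nucleus was thinned to 1000 UMIs the difference was -0.001445.

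Among nuclei of the 3 vascular types (fibroblast, endothelial and mural), fibroblasts made up 70.8 ± 8.45% in mutants and 63.1 ± 5.57% in controls (n = 6 each, exact permutation test, p = 0.0996). Mutants ran from 58.6 to 82.5% and controls from 54.5 to 71.7%. Without mutant 4, the lowest of the mutants, the difference grew from 7.68 to 10.1 percentage points (exact p = 0.0260). Mural nuclei, which enter this denominator, numbered 13 in mutants and 40 in controls. Their share of kept nuclei was 0.0204 ± 0.0140% and 0.0663 ± 0.0196% (n = 6 each, exact p = 0.00216, the smallest that 6 against 6 mice allow). Endothelial nuclei were 0.339 ± 0.109% and 0.396 ± 0.100% (exact p = 0.381). Shares depend on how well nuclei of each type survive isolation, and the part of this in the result was not tested.

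**Figure D2:**
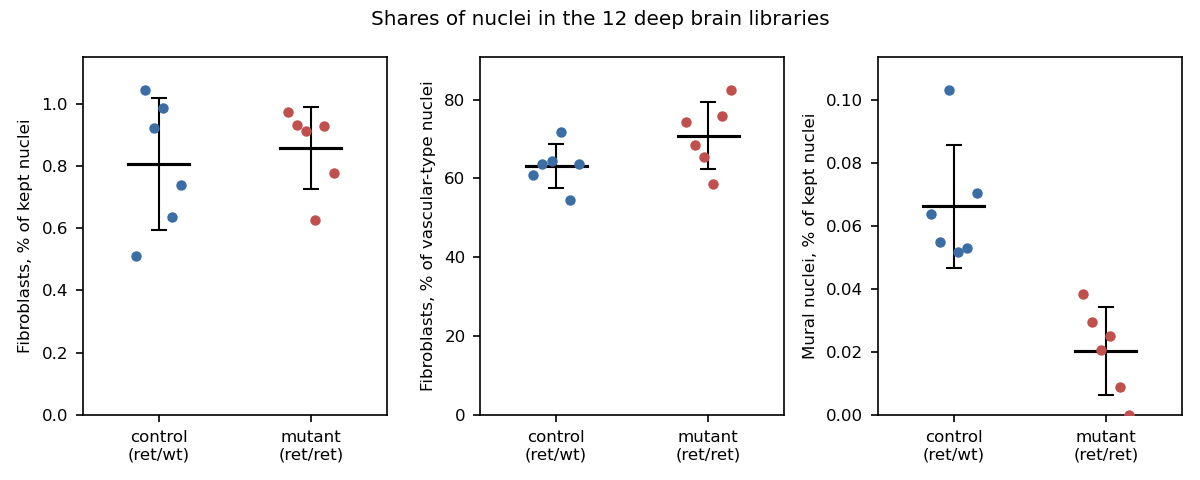
Share of fibroblasts among all kept nuclei (left) and among fibroblast, endothelial and mural nuclei (middle), and of mural nuclei among kept nuclei (right), in percent. Points are the 6 controls (blue) and 6 mutants (red), bars the mean and whiskers the SD. The fibroblast points of both genotypes overlap in the first 2 panels, and the mural points do not overlap in the last.

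The mean shares of the 4 largest clusters differed between genotypes by less than 1 SD. Cluster 1 made up 25.9 ± 6.04% of fibroblasts in mutants and 23.9 ± 8.62% in controls, cluster 2 made up 18.7 ± 4.20% and 21.7 ± 7.74%, cluster 3 made up 17.9 ± 4.74% and 18.6 ± 3.88%, and cluster 4 made up 14.6 ± 4.38% and 15.2 ± 4.37% (n = 6 each, no test). Cluster 5 differed more, at 8.37 ± 3.18% of fibroblasts in mutants (45 nuclei) and 3.45 ± 1.81% in controls (17 nuclei). It was not tested, because the nuclei were clustered on *Eln* and the genes found with it, and *Eln* was itself called between genotypes when no filter on low counts was set. More nuclei of this kind and more of these RNAs per nucleus cannot be told apart here.

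No gene passed the threshold between mutant and control fibroblasts. Of 6584 genes tested with edgeR's quasi-likelihood test on UMIs summed per mouse, 0 (0%) had a Benjamini-Hochberg adjusted p under 0.05, and the smallest adjusted p was 0.538. At an unadjusted p under 0.05 there were 354 genes (5.38%), 175 higher (2.66%) and 179 lower (2.72%) in mutants. DESeq2 called 1 gene, *A2m*, at an adjusted p of 0.035. Without the filter on low counts edgeR called 11. Without clusters 1 and 10, 0 of 4936 genes passed, the smallest adjusted p was 0.333, and 271 had an unadjusted p under 0.05 (edgeR). The median 95% interval of a gene's log2 fold change was ± 0.466 wide, without adjustment for the number of genes. To pass after adjustment a change had to be larger than this. In simulated counts with 200 changed genes, edgeR found 128 of them at a log2 fold change of 1 and 195 at 2. It also made 5 and 15 false calls, and DESeq2 found 128 and 169. The adjustment is stricter when fewer genes change. These counts therefore do not tell how many changed genes would be found if only a few had changed. For comparison, the same test called 47 of 2085 genes (2.25%) in the 461 endothelial nuclei of the same mice. A call in endothelial nuclei and none in fibroblasts does not show a difference, and that difference was tested separately.

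The 5 genes of smallest p in each direction are given as values. They were picked out of 6584 genes on these same levels, so separate ranges of the genotypes are no further support. The share of all genes with separate ranges was not counted. *Enpp1* makes pyrophosphate, an inhibitor of mineralization, and lies on chromosome 10 (ENSMUSG00000037370, 24637914 to 24712159, minus strand). Its lowest, median and highest level was 238, 331 and 429 CPM in mutants and 165, 188 and 281 CPM in controls. All mutants but the lowest lay above all controls. The log2 fold change was 0.69 ± 0.16 (SE), with an edgeR adjusted p of 0.538. By cluster, *Enpp1* stood at 1285 CPM in cluster 6, 990 in cluster 5, 481 and 437 in clusters 3 and 2 and 37.8 in cluster 1, and the log2 fold change was 0.53 without cluster 5.

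*Emp1*, a membrane protein of epithelia and stroma (ENSMUSG00000030208, chromosome 6, 135362545 to 135383173), had 29.2, 54.8 and 108 CPM in mutants against 5.88, 14.1 and 32.5 in controls. Its log2 fold change was 1.71 ± 0.38, and the ranges overlapped only at mutant 6. All other deep brain nuclei held 0.288 CPM of it in mutants and 0.284 in controls. *Clec3b* (tetranectin, ENSMUSG00000025784, chromosome 9, 123150946 to 123157432) had 60.9, 99.3 and 159 CPM in mutants against 19.6, 40.7 and 90.2 in controls. The highest control, control 1, lay above 3 mutants, and the log2 fold change was 1.29 ± 0.31. Both genes had an edgeR adjusted p of 0.538, and both passed when no filter on low counts was set, at 0.00857 and 0.0114.

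*Ntn1*, the guidance factor netrin-1, stood at 114, 143 and 244 CPM in mutants and 55.1, 88.9 and 98.1 in controls, with no overlap. In all other deep brain nuclei, where 340 of 21015 genes (1.62%) passed, *Ntn1* also rose, by 0.64 ± 0.09 on the log2 scale (edgeR adjusted p = 0.00629), so a higher level was not shown to be particular to fibroblasts. *Ndufaf2*, an assembly factor of mitochondrial complex I, stood at 60.0, 61.2 and 79.9 CPM against 25.1, 34.7 and 50.5, also without overlap. Its log2 fold change was 0.87 ± 0.20, and that of *Ntn1* was 0.84 ± 0.20, both with an edgeR adjusted p of 0.538.

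*A2m*, the protease inhibitor alpha-2-macroglobulin, was lowest in p of all genes (ENSMUSG00000030111, chromosome 6, 121635376 to 121679227). It stood at 23.3, 28.2 and 61.5 CPM in mutants and at 53.2, 88.5 and 190 CPM in controls, and only mutant 5 reached the range of the controls. The log2 fold change was -1.53 ± 0.31 (edgeR adjusted p = 0.538). In all other deep brain nuclei *A2m* moved the other way, from 4.20 CPM in controls to 9.86 in mutants, a log2 fold change of 1.24 ± 0.19 (edgeR adjusted p = 0.00986). Within fibroblasts it was spread over clusters 2 and 3, at 127 and 164 CPM, and had 2.84 CPM in cluster 1.

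The other genes of small p that were lower in mutants were regulators and a receptor. *Maf*, a leucine zipper transcription factor, stood at 96.1, 120.0 and 172 CPM in mutants and 173, 205 and 245 in controls, without overlap and with a log2 fold change of -0.67 ± 0.16. *Adgrv1*, a large adhesion receptor with 236 CPM in cluster 1 and at most 60.0 in clusters 2 to 6, stood at 39.9, 66.2 and 96.7 CPM against 96.0, 119 and 159, with an overlap of less than 1 CPM. *Cecr2*, a chromatin remodelling factor, had 30.3 ± 8.08 CPM in mutants and 70.6 ± 29.8 in controls, and control 6, at 28.3, lay within the range of the mutants. *Gab3*, a signalling adaptor on chromosome X, had 15.4 to 47.5 CPM against 30.8 to 80.5. The log2 fold changes of the last 3 were -0.84 ± 0.20, -1.24 ± 0.29 and -1.06 ± 0.27, and the edgeR adjusted p was 0.538 for all of these genes but *Gab3*, where it was 0.645.

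**Figure D3:**
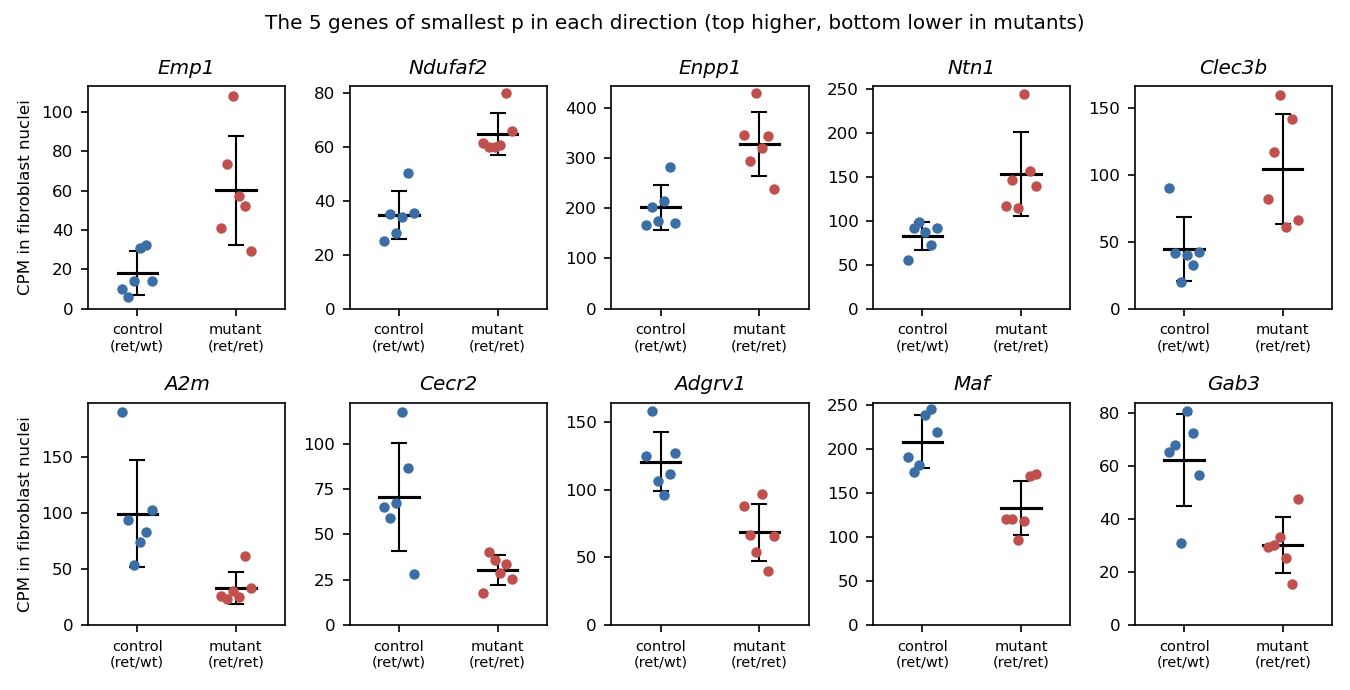
CPM in the fibroblasts of each deep brain library for the 5 genes of smallest p that were higher (top) and lower (bottom) in mutants. Points are the 6 controls (blue) and 6 mutants (red), bars the mean and whiskers the SD. *Ntn1*, *Ndufaf2* and *Maf* show no overlap of the groups, and none of the 10 genes passed the threshold. The genes were picked by p on these same values, so separation is no further support.

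The genes called only without the filter included several that led cluster 5 or cluster 6. *Eln* stood at 61.5, 180 and 373 CPM in mutants and 33.6, 76.5 and 138 CPM in controls. Mutants 2, 4 and 5 lay well above every control, mutant 6 by less than 1 CPM, and mutants 1 and 3 within their range. The filtered log2 fold change was 1.33 ± 0.41 (edgeR, unadjusted p = 0.004), and it was -0.19 when the nuclei of cluster 5 were left out. *Pi16* had 140 UMIs over all mutants and 8 over all controls. It stood at 7.31, 66.6 and 189 CPM in mutants and 0, 5.45 and 7.21 in controls, and the filter had left it out because too few libraries held enough UMIs. *Mfap5*, of elastic microfibrils, stood at 11.0, 69.1 and 101 CPM against 10.8, 19.1 and 24.7, and mutants 1 and 6 were within the range of the controls. *Acta2* had 61 UMIs in mutants and 4 in controls, and mutants 3 and 6 held most of them, at 66.1 and 128 CPM against at most 9.22 in the other 4. The 61 UMIs lay in 8 nuclei, with 35 in 1 of them.

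High values of *Ncam2* and *Gmnc* came from few libraries. *Ncam2*, a neural adhesion molecule, was at 943 and 715 CPM in mutants 2 and 3 and between 62.1 and 152 CPM in the other 10 mice. *Gmnc*, a gene of multiciliated cells that was among the leading genes of the choroid plexus-led cluster 11, stood at 0 to 46.6 CPM in mutants and 0 to 246 in controls. Without the 72 nuclei of the clusters led by other cells it had 1 UMI in mutants and 0 in controls. *Coch*, a leading gene of cluster 2, stood at 17.9, 47.4 and 79.9 CPM in mutants and at 24.7, 140 and 241 in controls, and every control but control 6 lay above all mutants. *Galnt18* stood at 40.2, 107 and 237 CPM against 25.1, 49.1 and 84.8.

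Matrix genes were then read as lists. Of 20 basement membrane genes 18 were tested, and 14 had a higher and 4 a lower estimate in mutants, with a median log2 fold change of 0.256 against -0.00875 over all genes tested. None passed, and 4 had an unadjusted p under 0.05 (edgeR), all higher, where the background for higher genes is 2.66%. These were *Col4a1* and *Col4a2*, which form the main collagen IV network, the laminin chain *Lamb1*, and *Col4a6*. *Col4a1* stood at 153 ± 39.9 CPM in mutants and 86.7 ± 30.2 in controls, a log2 fold change of 0.79 ± 0.22, and *Col4a2* at 114 ± 34.5 and 73.9 ± 19.3, or 0.62 ± 0.22 (n = 6 each). *Lama1* was level, at 556 ± 169 and 561 ± 183 CPM. By cluster, *Col4a1* reached 959.5 CPM in cluster 6 and 547 in cluster 5, and 42.8 to 112 in clusters 1 to 4.

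Fibrillar and fibril-associated collagens gave 7 higher and 6 lower estimates among 13 tested, with a median of 0.031. The highest was *Col1a1*, at 294 ± 66.6 CPM in mutants and 187 ± 57.9 in controls, a log2 fold change of 0.64 ± 0.20. *Col1a2*, the partner chain and a gene of the rule, stood at 511 ± 93.1 and 573 ± 75.4 CPM. *Col12a1* had 241 ± 32.5 and 251 ± 76.1 CPM. Of 20 proteoglycans and glycoproteins 13 were higher and 7 lower, and the small proteoglycan *Bgn* (biglycan) stood at 208 ± 31.9 against 146 ± 12.5 CPM, with a log2 fold change of 0.49 ± 0.13, or 0.18 without cluster 5. *Hmcn1*, a matrix protein mostly in cluster 1, was at 147 ± 31.8 in mutants and 202 ± 31.8 in controls.

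Of 26 genes of scar formation and collagen crosslinking, 14 were tested and 10 had a higher estimate. *Loxl1*, which crosslinks elastin, had 50.03 ± 22.3 CPM in mutants and 26.2 ± 9.96 in controls (log2 fold change 0.92 ± 0.33). *Timp3*, an inhibitor of matrix proteases, had 826 ± 237 and 669 ± 134 CPM. *Ccn2* had 461 ± 124 and 356 ± 74.8, a log2 fold change of 0.35, which was -0.0526 without cluster 5. The scar genes *Postn*, with 21 UMIs in mutants and 33 in controls, and *Tnc*, with 7 and 16, were too low to be tested.

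Signalling lists gave small medians. Of 23 BMP and TGFβ genes tested, 6 were higher and 17 lower, with a median of -0.184. *Bmp6*, the BMP ligand of these cells, had 783 ± 84.6 CPM in mutants and 921 ± 266 in controls, and *Smad6*, an inhibitor induced by BMP, had 63.0 ± 24.2 and 90.4 ± 28.5. The 9 retinoic acid genes tested gave 8 higher estimates and a median of 0.187. *Stra6*, the retinol carrier receptor, had 73.0 ± 26.0 CPM against 40.4 ± 21.5, *Dhrs3* 49.9 ± 14.9 against 30.5 ± 7.15, and *Aldh1a2* 298 ± 67.2 against 272 ± 93.0. Wnt genes divided evenly, 8 and 8. The PDGF receptors gave *Pdgfra* at 195 ± 39.9 and 188 ± 18.2 CPM and *Pdgfrb* at 157 ± 46.7 and 189 ± 65.7 CPM in mutants and controls, with log2 fold changes of 0.03 ± 0.15 and -0.29 ± 0.23.

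Among 28 transporters tested, 9 had a higher and 19 a lower estimate, with a median of -0.113. *Slc5a3*, which imports inositol, had 24.4 ± 7.30 CPM in mutants and 43.6 ± 9.05 in controls (log2 fold change -0.83 ± 0.25), and *Slc7a11*, the cystine importer, 1742 ± 262 and 1922 ± 589. Phosphate and mineralization genes gave 6 higher and 6 lower among 12 tested. The phosphate importer *Slc20a2* had 172 ± 12.0 and 160 ± 59.9 CPM, and *Mgp* 482 ± 178 and 478 ± 178. Without clusters 1 and 10 the log2 fold change of *Mgp* was 1.18 (edgeR), and 0 of 4936 genes passed in that setting. Genes of other lists also moved in this setting, among them *Slit2* to -0.945 and *Ltbp4* to 0.996. Of the clusters left, cluster 5, with 45 mutant and 17 control nuclei, had 621 CPM of *Mgp*. Cluster 8 had 455 CPM and clusters 2, 3, 4 and 6 had 70.7 to 173. The part of cluster 5 in the change of *Mgp* was not tested. Of the 12 phosphate and mineralization genes 1, *Enpp1*, had an unadjusted p under 0.05 (edgeR), against 5.38% of all genes tested, which is no result about this list.

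Of 30 interferon-stimulated genes only 11 had enough UMIs to be tested, and 10 of them had a higher estimate, with a median of 0.388. *Oasl2* stood at 81.2 ± 28.0 CPM in mutants and 36.2 ± 21.2 in controls (log2 fold change 1.12 ± 0.34), *Rnf213* at 136 ± 52.4 and 85.3 ± 37.8, and *Ifit1* at 56.8 ± 26.5 and 24.0 ± 27.2. Immediate early and stress genes were higher in 16 of 19, with a median of 0.285, and *Egr1* had 229 ± 71.0 and 173 ± 94.9 CPM. The 6 hypoxia and glycolysis genes tested were all lower, with a median of -0.136, and *Vegfa* had 31.8 ± 18.0 and 49.3 ± 12.2. At an unadjusted p under 0.05 (edgeR) lay 4 of 11 interferon, 3 of 9 retinoic acid and 1 of 19 immediate early genes, all higher. So did 1 of 6 hypoxia genes, lower. It was 2 of 13 collagens, 1 of 14 scar and 1 of 16 Wnt genes, all higher. Of 20 proteoglycans 3 were higher and 1 lower, and of 23 BMP and TGFβ genes and of 28 transporters 1 each way. The background is 2.66% for higher and 2.72% for lower genes. None of these genes passed, and the direction within a list shares the same 12 mice.

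**Figure D4:**
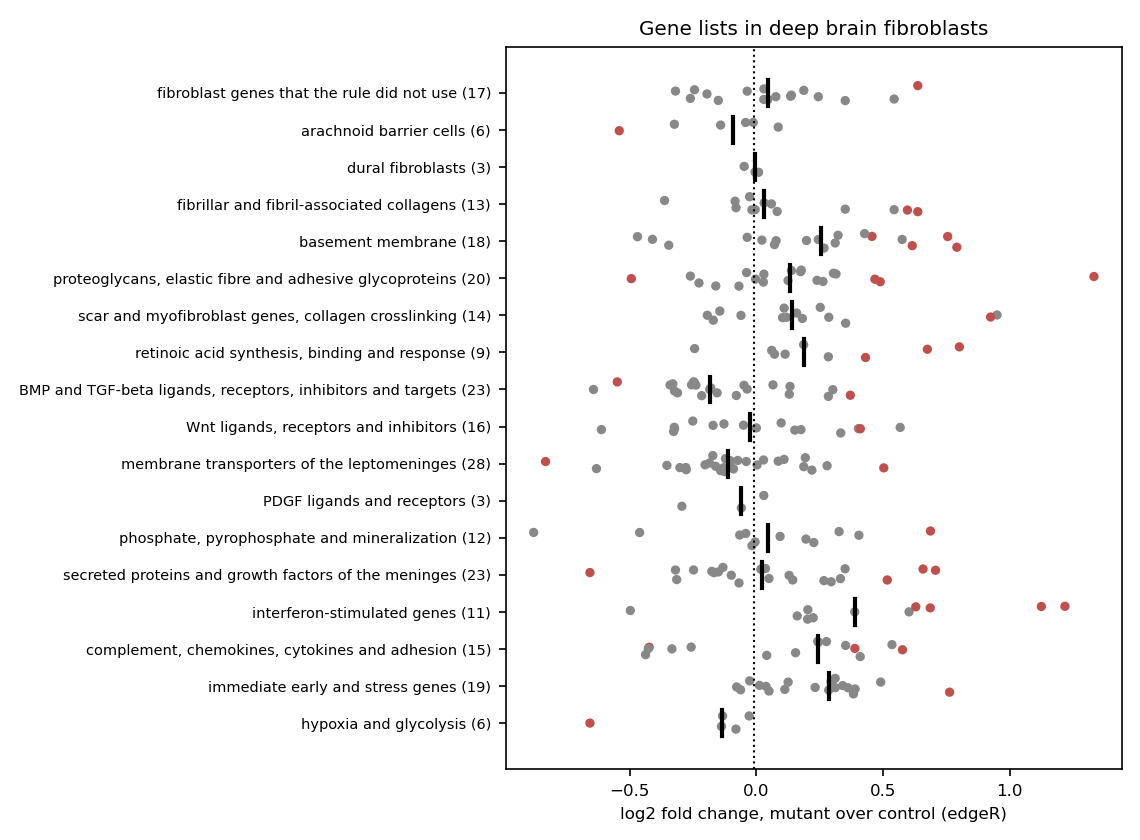
Log2 fold change, mutant over control, of each tested gene (points) in each list (rows, with the number of genes tested). Red points have an unadjusted p under 0.05, black bars mark the list's median and the dotted line the median of all genes tested, -0.00875. Basement membrane, interferon and immediate early genes lie mostly to the right and hypoxia genes to the left, and no gene passed after adjustment.

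Markers of other cells differed in summed level between libraries, and these sums do not measure RNA of other cells alone. The summed level of 9 endothelial markers ran from 180.2 to 329 CPM in mutants and from 179 to 506 in controls. These include *Cdh5*, which had 140.4 CPM pooled over all fibroblasts and was present in each of clusters 1 to 6. The summed level of 8 mural markers, which fibroblasts share in part, ran from 653 to 1275 and from 625 to 945. The summed level of 5 astrocyte markers was 738 to 2197 and 706 to 2626 CPM, with *Aqp4* at 0 by the rule. *Gpc5*, among these 5, had 2462 CPM in cluster 1, where the astrocyte transporter *Slc1a2* had 70.0. In clusters 2 to 6 *Gpc5* had at most 30.4 CPM, so the astrocyte sum also depends on the share of cluster 1. The sum of 7 choroid plexus and ependyma markers was the most variable, from 53.3 to 8555 CPM in mutants and from 129 to 21690 in controls. *Mecom*, an endothelial transcription factor, had 19.4 ± 19.0 CPM in mutants and 54.2 ± 39.0 in controls. Its level was 656 CPM in the choroid plexus-led cluster 11 and at most 18.9 in clusters 1 to 6. Without the 72 nuclei of the 4 clusters led by other cells *Mecom* had 8.67 ± 9.95 and 9.16 ± 12.9 CPM, still 0 genes passed, and *A2m* had a log2 fold change of -1.45 (edgeR adjusted p = 0.162).

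Whether the genotype effect differed between fibroblasts and endothelial nuclei was tested as an interaction, with the mouse as a block. Of 5931 genes, 10 (0.169%) passed at an adjusted p under 0.05 (edgeR), 2 (0.0337%) with a more positive and 8 (0.135%) with a more negative effect in fibroblasts. Without the filter on low counts the count was 47. In each of these 10 the fibroblast ranges of the genotypes overlapped, and the endothelial ranges did not, except for *Lama1*. The genes were selected by the interaction on these same values, so their ranges are a description and no further support. How many of all genes tested had such ranges was not counted. The 8 with a more negative effect included *Bmp6*, the BMP inhibitor *Smad6* and the laminin *Lama1*.

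*Bmp6* (chromosome 13, 38345107 to 38500302) had 246 ± 118 CPM in mutant and 9.87 ± 12.8 in control endothelial nuclei, from 168 and 5 UMIs. In fibroblasts it had 783 ± 84.6 and 921 ± 266 CPM, and the difference of the log2 effects was -4.96 ± 0.57 (edgeR adjusted p = 7.8e-05). *Smad6*, an inhibitor downstream of BMP receptors, had 14.5 ± 16.5 CPM in control and 81.3 ± 26.4 in mutant endothelial nuclei, with an interaction of -2.84 ± 0.58 (adjusted p = 0.0448). These endothelial levels came from 11 and 57 UMIs, the 11 of controls from 3 libraries only. *Crim1*, which binds BMPs, had 244 ± 72.4 CPM in control and 691 ± 130.0 in mutant endothelial nuclei. In fibroblasts *Crim1* stood at 289 ± 76.2 and 322 ± 76.0, and its interaction was -1.38 ± 0.24 (adjusted p = 0.0093).

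*Ccn2* (chromosome 10, 24595442 to 24598683) had 706 ± 503 CPM in mutant and 41.1 ± 41.0 in control endothelial nuclei, and an interaction of -3.61 ± 0.58 (edgeR adjusted p = 0.00672). *Angpt2*, an antagonist of the TIE2 receptor, had 163 ± 71.1 and 18.3 ± 24.8 CPM there, and 30.5 ± 13.4 and 41.6 ± 15.6 in fibroblasts. Its endothelial levels came from 105 and 12 UMIs, the 12 of controls from 3 libraries only. *Lama1* (chromosome 17, 67697259 to 67822647) had 73.4 ± 37.7 CPM in mutant and 8.97 ± 8.41 in control endothelial nuclei, from 55 and 6 UMIs, below its level in fibroblasts of either genotype. Its interaction was -2.94 ± 0.61 and that of *Angpt2* -3.56 ± 0.61 (adjusted p = 0.0448 and 0.0093). *Sncaip* and *Myof*, a membrane repair protein, followed at -2.43 ± 0.39 and -1.87 ± 0.36.

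With a more positive effect in fibroblasts, *Lmntd1* was lower in mutant endothelial nuclei. It had 42.0 ± 19.9 CPM in mutant and 291 ± 33.2 in control endothelial nuclei and 77.2 ± 17.9 and 77.3 ± 49.1 in fibroblasts, for an interaction of 2.78 ± 0.46 (edgeR adjusted p = 0.00672).

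**Figure D5:**
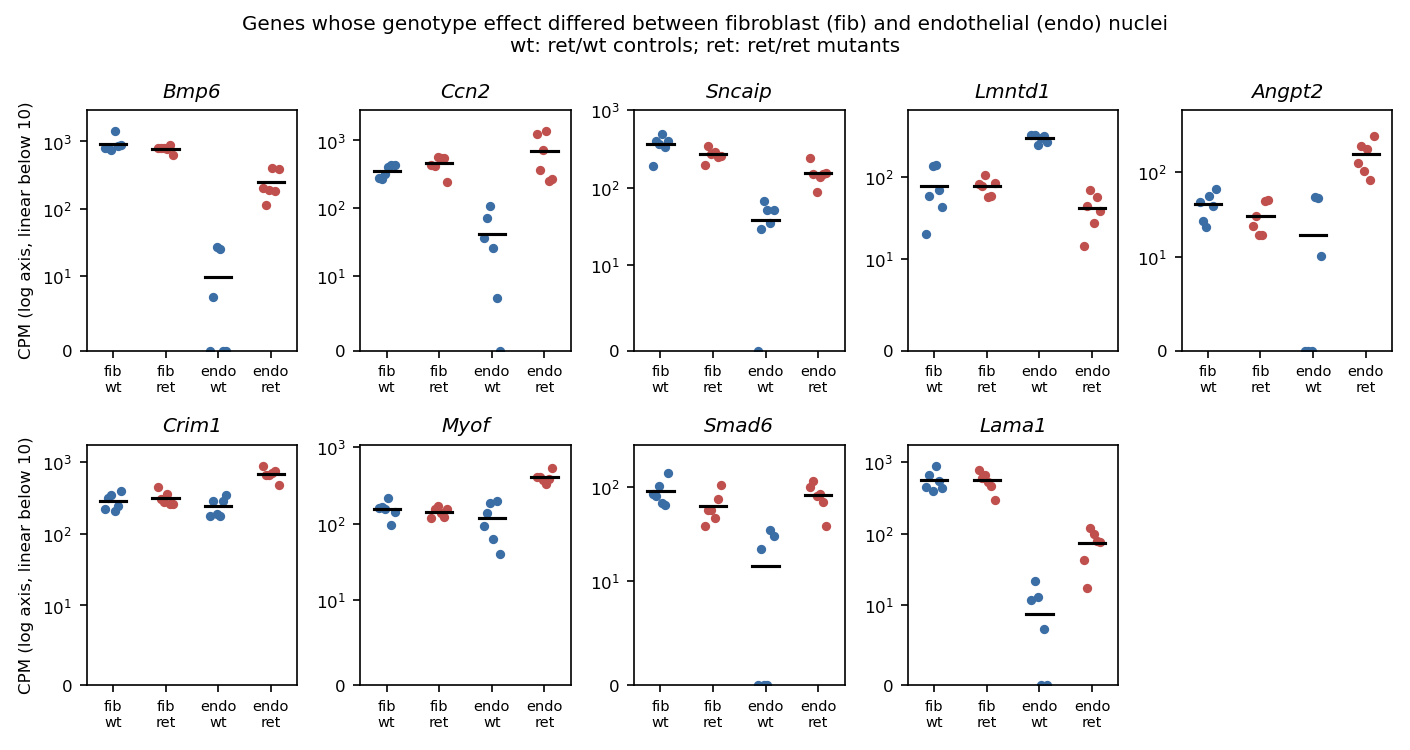
CPM per library (points; log axis, linear below 10) in fibroblast (fib) and endothelial (endo) nuclei of controls (wt, blue) and mutants (ret, red) for 9 of the 10 genes whose genotype effect differed between the classes, with bars at the mean. In each panel but that of *Lama1* the endothelial points of the genotypes stand apart, and in all the fibroblast points overlap. The genes were selected by the interaction test on these same values, and the share of all genes with such ranges was not counted.

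In the cortex, with library totals of 23625232 to 95605387 UMIs, 281 nuclei met the same rule, and 205 of them came from 3 of the 12 libraries. Libraries with at least 10 of them were those of mutants 1, 5 and 6 and controls 3, 4, 5 and 6. Of these, the libraries of mutant 1, control 3 and control 4 stood apart, with a median of 814, 841 and 804 UMIs per kept nucleus against 6494 to 8054 in the other 4. Between genotypes 0 of 2655 genes passed (0%), with 88 (3.31%) at an unadjusted p under 0.05 (edgeR). Without the filter on low counts the count was 14. Of the 10 genes named in the deep brain, 4 could be tested in the cortex. *Enpp1* had a log2 fold change of 0.42 ± 0.43 there, *Ntn1* 0.95 ± 0.42, *Adgrv1* -1.48 ± 0.52 and *Maf* -0.70 ± 0.39, each of the same sign as in the deep brain. The cortex came from the same mice, so the shared sign is not an independent repeat. The genotype effect differed between the regions in 0 of 7153 genes (0%), with 198 (2.77%) at an unadjusted p under 0.05 (edgeR), and with few cortical nuclei the median interval of that difference was ± 1.20.

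Deep brain and cortical fibroblasts of the same 7 mice were then compared, with the mouse as a block. Of 5485 genes 0 (0%) passed (edgeR), 455 (8.30%) had an unadjusted p under 0.05, and the smallest adjusted p was 0.0509, while DESeq2 called 15. The leading gene higher in the deep brain was *Lsamp*, a neural adhesion molecule, at 2495 ± 1081 CPM against 673 ± 398 in the cortex (n = 7 mice, log2 fold change 1.91 ± 0.31). In all other nuclei *Lsamp* had 6166 ± 544 CPM in the deep brain and 4676 ± 538 in the cortex. *Gm30613*, a leading gene of cluster 3, had 149 ± 91.1 and 25.1 ± 26.0 CPM in fibroblasts and under 1 CPM in all other nuclei of either region. It was at 0 in the cortical libraries of mutant 1, control 3 and control 4 and at 22.5 to 58.2 CPM in the other 4. *Unc5c*, a netrin receptor, was lower in the deep brain, at 356 ± 82.2 against 885 ± 305 CPM, a log2 fold change of -1.27 ± 0.21. In all other nuclei *Unc5c* differed the other way, at 870 ± 123 and 620 ± 53.9 CPM. With the 4 mice of deeper cortical libraries alone, 0 of 5577 genes passed (edgeR, smallest adjusted p = 0.156), 357 had an unadjusted p under 0.05, and the log2 fold changes were 1.33 ± 0.23 for *Lsamp*, 1.45 ± 0.31 for *Gm30613* and -0.91 ± 0.23 for *Unc5c*.

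*Rnf43*, a Wnt receptor ligase, had 66.1 ± 10.4 CPM in deep brain and 144 ± 38.7 in cortical fibroblasts, against 16.7 and 9.72 in all other nuclei of the 2 regions. The neuronal genes *Camk2a* and *Nrgn* were also among those lower in deep brain fibroblasts. *Camk2a* had 32.2 ± 16.6 and 91.7 ± 42.5 CPM in fibroblasts and 284 and 590 in all other nuclei. *Nrgn* had 39.3 ± 15.1 and 91.2 ± 31.0 in fibroblasts and 66.6 and 193 in all other nuclei. The part of RNA from those nuclei in the fibroblast levels was not tested.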

How the data were processed

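Nuclei from frozen tissue were sequenced with the 10x Genomics 5′ kit (V2, dual index), and per the labels' processing notes the reads were demultiplexed with bcl2fastq 2.20.0.422 and counted with Cell Ranger 5.0.1 on mm10. The deposited matrices hold raw UMI counts per gene and nucleus, with 1 mouse and region per library. No doublet caller was run, and the rule leaves out nuclei on 8 genes only, none of them of mural or choroid plexus cells. Nuclei with over 500 and under 7000 genes and under 20% mitochondrial UMIs were kept. Endothelial nuclei had at least 5 UMIs from at least 2 of *Flt1*, *Cldn5*, *Mecom*, *Adgrl4* and *Ly6c1*, with at most 1 UMI of the fibroblast genes, and mural nuclei were chosen in the same manner on mural genes. CPM is per 1000000 UMIs of the summed nuclei of a class.

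Counts were summed per library and tested with edgeR's quasi-likelihood test (filterByExpr, TMM factors from 0.974 to 1.02, Benjamini-Hochberg over all genes tested, threshold 0.05), which was tested on simulated data first. Libraries with at least 10 nuclei of the class entered. Shares were compared by two-sided exact permutation over libraries. Clusters came from scanpy 1.11.5 (2000 variable genes, 20 components, 20 neighbours, Leiden resolution 0.8, chosen after the clusters were seen). Their leading genes had the largest ratio to the other fibroblasts with 10 CPM added and at least 50 CPM. Genes were named as the 5 of smallest p in each direction, since none passed, list genes by level or by p, and the 8 of smallest p in each direction between regions. Examples from the lists, the clusters and the unfiltered fit were chosen after their values were seen. The fibroblast rule, the lists and the tests were chosen with earlier results of these data known. Coordinates are from GENCODE M21 on GRCm38, matched by gene identifier. A p-value sets a difference against the spread between these mice, and the depth of the libraries is given with the results as the range of their total UMIs. Some genes that these rules would name are not reported here.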

Additional observations from a re-analysis of the deposited data

Results flagged for a closer look

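In 6 of 32 groups of 6 libraries examined, 1 library stood far from the others of its genotype, by the ratio of the gap to the range. A gap of this size arises by chance in about 1 in 20 groups. For *Ndufaf2*, mutant 5 had 79.9 CPM against 65.8 in the next mutant. For *Ntn1*, mutant 4 had 244 CPM against 157. For *Clec3b*, control 1 had 90.2 CPM against 42.4. For *A2m*, mutant 5 had 61.5 CPM against 32.9 in the next mutant, and control 1 had 190.5 CPM against 102 in the next control. Control 3 had the highest share of mural nuclei, 0.103% against 0.0704%.

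The genotype effect differed between fibroblast and endothelial nuclei in 10 genes by the interaction test of edgeR. In 9 of them the difference, fibroblast minus endothelial on the log2 scale, is given here. It was -4.96 for *Bmp6* (adjusted p = 7.8e-05), -3.61 for *Ccn2*, -2.43 for *Sncaip* and 2.78 for *Lmntd1* (0.00672 each). It was further -3.56 for *Angpt2* and -1.38 for *Crim1* (0.0093 each), -1.87 for *Myof* (0.0256), and -2.84 for *Smad6* and -2.94 for *Lama1* (0.0448 each).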

How the results depend on the processing

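The count of 0 genes between genotypes in deep brain fibroblasts stayed at 0 in every alternative run (size factors by RLE, a replicate block, an age block, a stricter rule for members, stricter mitochondrial limit, without the clusters led by other cells or the *Eln* cluster, without clusters 1 and 10, and each library left out) except DESeq2, with 1, and no filter on low counts, with 11. Without the filter the count for cortical fibroblasts was 14 and for the interaction with endothelial nuclei 47. Between regions the count was 15 by DESeq2, 2 by RLE and 2 with no replicate block, and from 0 to 5 with 1 mouse left out (3 without mutant 1, 2 without control 3 and 5 without control 6). The cause of these differences was not tested. Without the 3 shallow cortical libraries, an alternative chosen after seeing the data, the counts in the cortex and between regions were also 0. The share of fibroblasts differed by -0.001445 points after thinning to 1000 UMIs and by -0.00654 (without control 1) to 0.1003 with 1 library left out, without passing the test in any of these. The share among vascular types differed by 5.335 to 10.12 points with 1 library left out, and passed the test only without mutant 4 (10.12, exact permutation p = 0.0260). Same-numbered mice had deviations with correlations from -0.105 to 0.222. Only 1 of 6 mutants correlated best with its own number, so the numbers were not taken to pair the mice. By the labels, same-numbered mice 1 to 4 had equal ages, as did mutant 5 with control 6 and mutant 6 with control 5. The correlations were not run on these age pairs. With the replicate block the count between genotypes was also 0. Of the 10 genes of smallest p between genotypes 0 changed sign in any alternative in which they were fitted. They were picked for small p on these same counts, so this is no further support for them. Of 107 list genes followed by their ratio of levels, 44 changed sign in at least 1 alternative, among them *Eln* and *Ccn2*, at -0.19 and -0.0526 without the *Eln* cluster.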
